A study of Mus musculus with 6 samples.

Results

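Mitochondria constantly join and divide, and 7 genes that encode the machinery of this fusion and fission were followed in gastrocnemius, a calf muscle, of male C57BL/6J mice. They were Mfn1, Mfn2, Opa1, Oma1, Dnm1l, Fis1 and Mff, found by their symbol in the platform annotation, and they were 7 of 18193 genes with a symbol and 7 of the 11526 genes whose signal was high enough to be tested. They had 19 probe sets in all, that is, groups of short probes that read 1 transcript region; 16 of these were above the signal filter. The brightest probe set of a gene stands for it, and the others serve as a check. The 7 genes were chosen with earlier results of these data known.

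RNA was pooled within each group and hybridised to 1 expression array for each of 6 combinations of diet and fasting time. The HF+SFC+ALA mice ate a high-fat diet with 60 kcal% fat with 2 additions: SFC, the iron salt sodium ferrous citrate (0.023% by weight), and ALA, which is 5-aminolevulinic acid phosphate, a compound from which heme is built (0.2%). The HF mice ate the same diet without these additions, and the Control mice a diet with 10 kcal% fat. All groups began their diet at 6 weeks of age and kept it for 15 weeks, and for each diet 1 pool follows a fast of 24 h and 1 a fast of 4 h. The labels give an age of 21 months for every pool, which the feeding times do not give. Pool sizes are not stated in the labels, and no combination was repeated, so p-values do not measure a spread between mice or repeated pools. They rest on what is left between pools once diet and fasting time are taken out, with 2 residual degrees of freedom. What is left includes any fasting response that differs between diets. The fit combines it with the spread of other genes of like signal, with 7.27 prior degrees of freedom. The question of the series is what SFC with ALA does to muscle mitochondria when the diet is rich in fat.

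Fusion is carried out by large GTPases. MFN1 and MFN2, the mitofusins, join the outer membranes of neighbouring mitochondria, and OPA1 joins the inner membranes and keeps the folds called cristae in shape. OMA1 is an inner membrane protease that cuts OPA1 when mitochondria are stressed, which stops inner membrane fusion. Fission depends on the GTPase DRP1, encoded by Dnm1l, which is drawn from the cytosol to the outer membrane, wraps around the organelle and constricts it. MFF is a main receptor for DRP1 in mammals, while FIS1, a small outer membrane protein, is the receptor in yeast and has a more debated part in mammals. In muscle the coactivator PGC-1alpha, encoded by Ppargc1a, works with the receptor ERRalpha and the factors NRF1 and GABPA on genes of mitochondria, and Mfn2 is among the known targets of PGC-1alpha and ERRalpha.

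Promoters of 3 of the genes are shown, a choice made because Ppargc1a fell after the 24 h fast, as described further on. They hold letters that partners of PGC-1alpha are known to bind, but a link from that fall to these genes was not tested. The fitted log2 difference for 24 h against 4 h of fasting was 0.07 for Opa1, 0.09 for Mfn1 and -0.13 for Mff. Oma1 and Fis1 hold such letters as well and are not shown, while none were found in Mfn2 or Dnm1l. The promoters shown are the 250 bases before the RefSeq start site, from RefSeq with the build GRCm38.p6, and capitals mark the matched motif. Opa1 lies on the plus strand at chr16:29579084-29579333 and holds an NRF1 motif from -59 to -50 relative to the start site. Mfn1 (chr3:32529232-32529481, plus strand) holds a motif of GABPA and other ETS factors from -43 to -37. Of 2 overlapping start windows of Mff the second is shown (chr1:82724668-82724917, plus strand), with that motif from -125 to -119 and again from -28 to -22.
Opa1: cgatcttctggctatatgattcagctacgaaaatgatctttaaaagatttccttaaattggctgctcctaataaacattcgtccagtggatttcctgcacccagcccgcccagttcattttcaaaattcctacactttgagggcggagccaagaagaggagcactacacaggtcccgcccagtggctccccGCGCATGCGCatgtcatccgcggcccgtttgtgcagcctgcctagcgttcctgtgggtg
Mfn1: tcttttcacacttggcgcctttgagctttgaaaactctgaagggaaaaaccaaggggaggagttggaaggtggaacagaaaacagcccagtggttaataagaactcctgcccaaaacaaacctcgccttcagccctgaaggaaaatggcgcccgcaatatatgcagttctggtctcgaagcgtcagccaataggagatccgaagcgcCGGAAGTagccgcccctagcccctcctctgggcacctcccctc
Mff: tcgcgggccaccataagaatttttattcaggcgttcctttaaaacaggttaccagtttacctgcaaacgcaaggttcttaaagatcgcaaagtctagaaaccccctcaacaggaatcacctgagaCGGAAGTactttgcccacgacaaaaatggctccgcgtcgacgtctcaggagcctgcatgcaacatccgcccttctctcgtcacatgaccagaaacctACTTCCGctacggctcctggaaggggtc

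All 7 genes had a promoter in the RefSeq table, with 12 windows between them. Both strands were searched for 6 motifs. The NRF1 motif, spelled GCGCA, any 1 base and then GCGC, was found in 2 of the 7 genes, Opa1 and Oma1, and in 3.74% of all 32851 promoter windows of this length. The ETS motif CGGAAGT was found in 3 genes, Mfn1, Fis1 and Mff, and in 4.92% of all windows. None of the 7 held the ERR motif TCAAGGTCA (0.387% of all windows), the CREB motif TGACGTCA (1.55%) or the FoxO motif GTAAACA (3.17%). The GC box GGGCGG was found in all 7 genes, beside 32.7% of all windows. A gene counts here if any of its windows holds the motif, while the shares are of single windows, so the counts and shares are not in like units. Matches to different motifs did not overlap in the windows of the 7 genes. A match is a description of letters, not of binding, and no match says only that these letters are not in the window.

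The trimmed mean of each array, leaving out 2% at either end, was 500.004 as deposited, as after scaling to a common value. It therefore does not show whether the arrays were alike before scaling. Median signals were 63.0 to 69.5. As a measure of RNA quality, the actin control in the HF pool at 4 h gave 1.52 times as much signal at its 3' end as at its 5' end. In the other pools it gave 1.08 to 1.22 times. The Gapdh control did not set that pool apart, at 0.83 times beside 0.81 to 0.86 times in the others. The part of RNA quality in the results was not tested. All 15 markers of skeletal muscle fibres were measured, among them Acta1, the skeletal actin, at signals of 41541 to 47742, so the label of the tissue stands. With 6 arrays, their number limits the precision. Whether a brighter gene follows its transcript as closely as a dimmer one was not tested; the brightest of the 7, Mff, reached 18441, against highest signals on the arrays of 57775 to 64863.

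Among the fusion GTPases the signals were close together in all pools. Mfn1 stood at 7136, 7775 and 7799 after 24 h in the HF+SFC+ALA, HF and Control pools, against 7292, 6860 and 7108 after 4 h. Its fasting times overlapped, since the HF+SFC+ALA pool at 24 h lay below its 4 h counterpart while the other diets went the opposite way. Mfn2 stood at 12399, 12083 and 12658 after 24 h in the same diets, against 12596, 12515 and 13237 after 4 h. It was the steadiest of the 7, with the highest pool 1.10-fold above the lowest. Opa1 stood at 8403, 8734 and 9084 after 24 h, against 8253, 8045 and 8633 after 4 h. Each 24 h pool of Opa1 was above the 4 h pool of its diet, but the Control pool at 4 h was above the HF+SFC+ALA pool at 24 h, so the fasting times overlapped.

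Oma1, the protease that cuts OPA1, stood at 1079, 1127 and 1318 after 24 h in the HF+SFC+ALA, HF and Control pools, against 1166, 1257 and 1292 after 4 h. Both Control pools were above the 4 others, and the HF+SFC+ALA pool was the lowest at each fasting time. Oma1 has a single probe set, so no second reading of it was possible.

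In the fission group Dnm1l stood at 4086, 4036 and 4038 after 24 h in the HF+SFC+ALA, HF and Control pools, against 4714, 4265 and 4065 after 4 h. The HF+SFC+ALA pool at 4 h was the highest, and the other 5 pools lay between 4036 and 4265. Fis1 stood at 4951, 4888 and 5395 after 24 h, against 5502, 4854 and 5417 after 4 h. Its HF pools were the lowest at both fasting times. Mff stood at 15878, 16122 and 15191 after 24 h, against 16378, 18441 and 16726 after 4 h. All 3 pools of Mff at 24 h were below all 3 pools at 4 h.

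**Figure D1:**
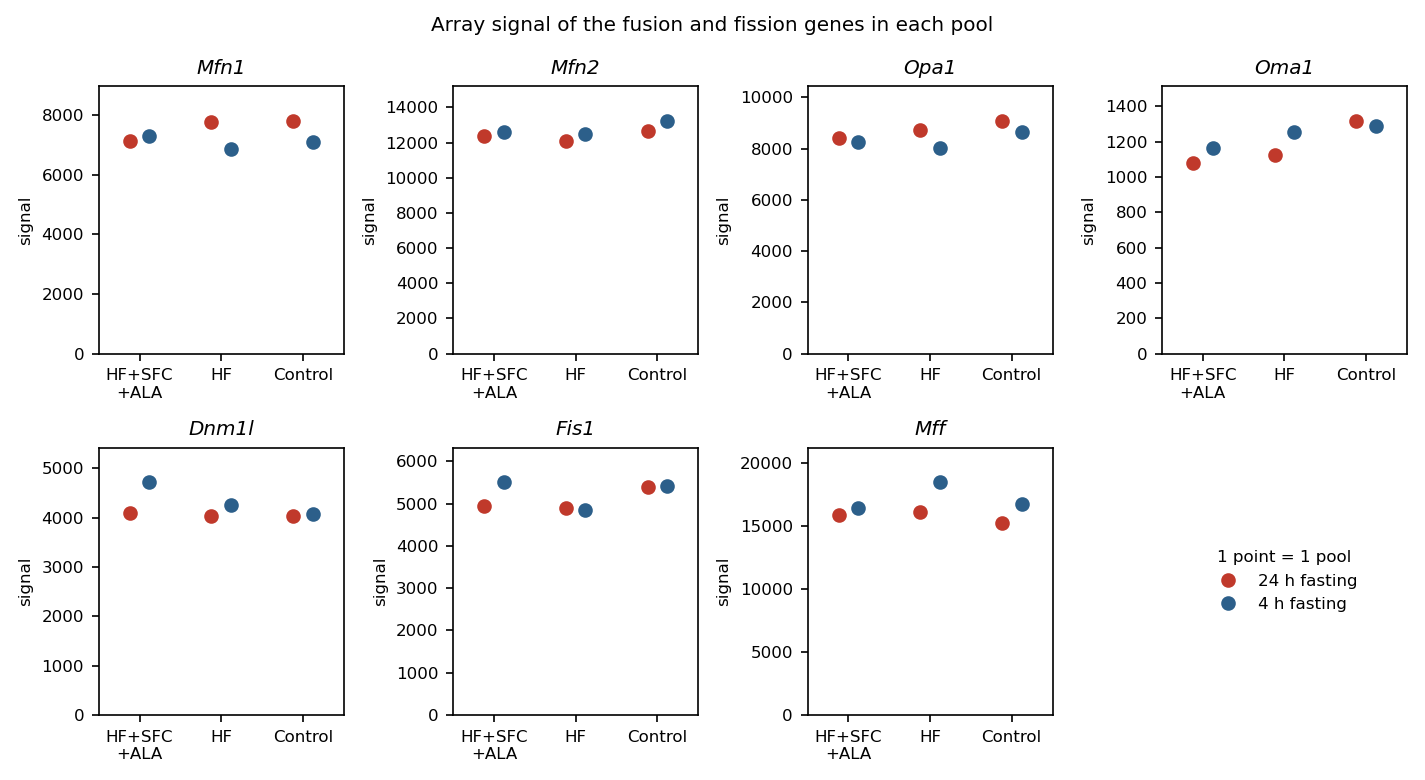
Array signal (vertical axes, from 0) of the brightest probe set of each of the 7 genes, by diet (horizontal axes) and fasting time (red 24 h, blue 4 h), 1 point for each pool and no error bars because no pool was repeated. The points of a gene lie close together, from 12083 to 13237 for Mfn2 and from 15191 to 18441 for Mff.

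Over the 6 pools the highest signal was 1.10-fold above the lowest for Mfn2, 1.13-fold for Opa1 and for Fis1, 1.14-fold for Mfn1, 1.17-fold for Dnm1l, 1.21-fold for Mff and 1.22-fold for Oma1. The median of these 7 ranges was 0.19 on the log2 scale, beside 0.50 over all 11526 genes tested and 0.31 over the 2882 brightest genes. Of all genes tested, 1.59% had a smaller range than Mfn2 and 19.03% a smaller range than Oma1. All 7 genes are bright: 69.0% of the genes tested were dimmer than Oma1, the dimmest of them, and 97.7% were dimmer than Mff. The level of Mff is that of 1456736_x_at, some of whose probes may also match other transcripts. Its next brightest probe set, 1451572_a_at, stood at 2893 to 3414. The pools differed little as well. In the HF+SFC+ALA pool at 24 h 0 of the 7 genes were above their own mean over the pools, against 5 of 7 in each Control pool, and 2 of 7 in the HF pool at 24 h. The median deviation was -0.038 in that HF+SFC+ALA pool, -0.055 in the HF pool at 24 h, and 0.064 and 0.026 in the Control pools at 24 h and 4 h. In the pools of HF+SFC+ALA and HF at 4 h 3 of 7 were above. These counts were not made over all genes tested, so they cannot be called particular to the 7 genes.

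**Figure D2:**
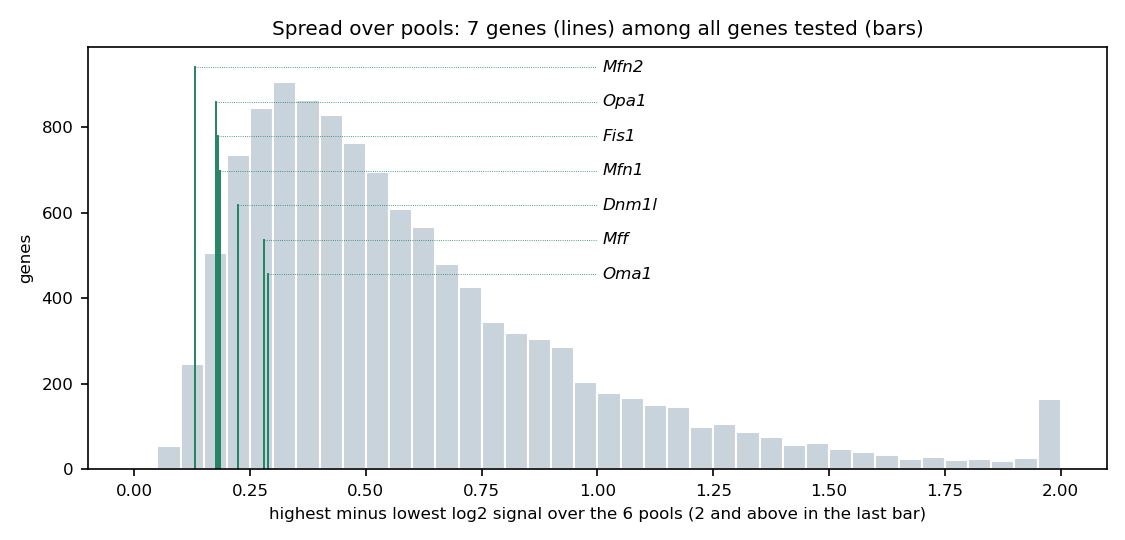
Number of genes (vertical axis) by the highest minus the lowest log2 signal over the 6 pools (horizontal axis, log2 units), for all 11526 genes tested (grey bars) and for the 7 genes (green lines with names). The 7 lines lie between 0.13 for Mfn2 and 0.29 for Oma1, left of the overall median of 0.50.

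Fasting for 24 h was compared with 4 h first, and diet was a term of the model. Of the 7 genes 0 passed an adjusted p of 0.05 in the limma fit and 0 had an unadjusted p under 0.05, beside 2.41% of all genes tested that passed and 17.7% with an unadjusted p under 0.05. Mff, the DRP1 receptor, read by probe set 1456736_x_at, had the lowest p. Its log2 difference was -0.13 ± 0.06 (standard error from the same fit, which also draws on other genes) with adjusted p = 0.346. Its 95% interval ran from -0.27 to 0.02. Mff was the only 1 of the 7 whose fasting times did not overlap, beside 18.9% of all genes tested. Dnm1l gave -0.10 ± 0.07 (adjusted p = 0.522) and Fis1 -0.05 ± 0.07 (adjusted p = 0.762), so the 3 fission genes had negative values. That of Fis1 was 0.0021 without either of the HF+SFC+ALA pools. Of the fusion GTPases Mfn1 gave 0.09 ± 0.07 and Opa1 0.07 ± 0.06, with adjusted p = 0.530 and adjusted p = 0.606, and Mfn2 gave -0.05 ± 0.06 (adjusted p = 0.753). These signs depend on the probe set, since the next brightest gave -0.0074 for Mfn1 and -0.083 for Opa1. Oma1 gave -0.08 ± 0.09 (adjusted p = 0.693). The median of the 7 differences was -0.05, beside 0.01 over all genes tested, and 4 of 7 had the same sign in all 3 diets, beside 39.4% of all genes. Of these 3 were lower at 24 h in every diet, Mfn2, Dnm1l and Mff (beside 18.3% of all genes), and 1 was higher, Opa1 (beside 21.0%).

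A second reading came from the other probe sets, each fitted on its own over 20122 probe sets above the filter. In the fasting comparison 0 of the 16 passed after adjustment, beside 1.58% of all probe sets, and 2 of 16 had an unadjusted p under 0.05, beside 16.4%. The 3 probe sets of Mff all lay lower at 24 h. Probe set 1451572_a_at stood at 3164, 2893 and 2978 after 24 h in the HF+SFC+ALA, HF and Control pools, against 3289, 3361 and 3414 after 4 h. Probe set 1456582_x_at stood at 383, 364 and 388 after 24 h, against 720, 537 and 439 after 4 h. Neither overlapped between fasting times, beside 18.9% of all genes tested, a share that was not counted over probe sets. The differences were -0.16 ± 0.07 (adjusted p = 0.329 in the limma fit over probe sets) and -0.55 ± 0.15 (adjusted p = 0.111). These readings share the same 6 arrays and gene, so they are not independent of each other. The second probe set of Fis1, 1443819_x_at, was also lower at 24 h in all 3 diets, beside 18.3% of all genes tested. Its log2 differences were -0.14, -0.38 and -0.14 in HF+SFC+ALA, HF and Control pools, and the fitted difference was -0.22 ± 0.09 (adjusted p = 0.247 in the same fit). Of the other readings, the second probe set of Mfn1, 1426773_at, stood at 4761, 4520 and 4882 after 24 h, against 5104, 4317 and 4841 after 4 h, and that of Dnm1l, 1428087_at, at 1569, 1463 and 1148 after 24 h, against 1607, 1307 and 1394 after 4 h. Both overlapped between fasting times, and the sign of the difference was not the same in all diets. Probe set 1449214_a_at of Opa1 stood at 987, 961 and 680.2 after 24 h, against 958, 1020.3 and 783 after 4 h, and was lower at 24 h only in the HF and Control pools, whereas the brightest probe set of Opa1 was higher in every diet. The 3 probe sets below the signal filter, 1 each of Mfn2, Dnm1l and Mff, were not tested. An x in the name of a probe set says that some of its probes may also match other transcripts. This holds for 1456736_x_at, the brightest probe set of Mff, for 1456582_x_at and for 1443819_x_at of Fis1, but not for 1451572_a_at. The brightest probe set of Mfn1, 1449697_s_at, has an s in its name. The second, 1426773_at, has neither letter and gave -0.0074 ± 0.07 with fasting, beside 0.09 for the brightest.

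**Figure D3:**
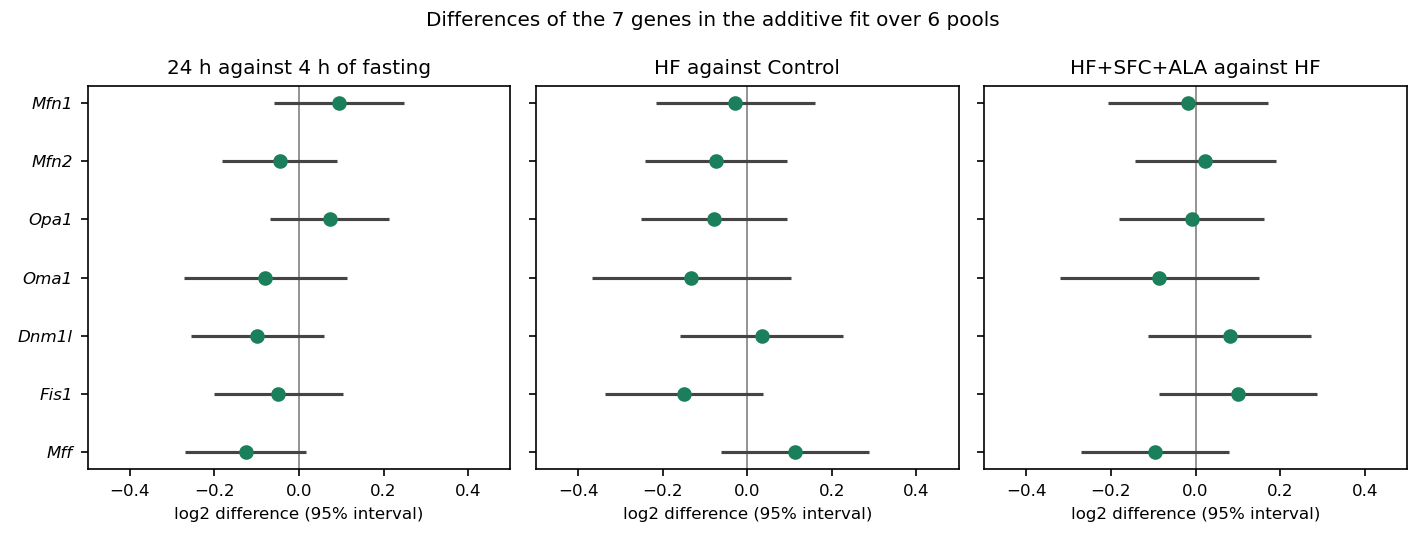
Log2 difference (horizontal axes) of the 7 genes (rows) in the additive fit over 6 pools, for 24 h against 4 h of fasting, HF against Control and HF+SFC+ALA against HF. Points are estimates and lines 95% intervals; every interval includes 0, and the widest reach is that of Oma1 for HF against Control, from -0.37 to 0.10.

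The HF pools were next set against the Control pools, over both fasting times. Of the 7 genes 0 passed and 0 had an unadjusted p under 0.05 in the limma fit, beside 0.885% and 14.7% of all genes tested. Fis1 lay lowest, at 4888 and 4854 in the HF pools after 24 h and 4 h, against 5395 and 5417 in the Control pools. Its log2 difference was -0.15 ± 0.08 (adjusted p = 0.435, 95% interval -0.34 to 0.04). Oma1 gave -0.13 ± 0.10 (adjusted p = 0.589), with -0.23 between the 24 h pools and -0.04 between the 4 h pools, and was -0.21 when the 4 h Control pool was left out and -0.050 when the 24 h one was. Opa1 gave -0.08 ± 0.08 (adjusted p = 0.664), Mfn2 -0.07 ± 0.07 (adjusted p = 0.679) and Mfn1 -0.03 ± 0.08 (adjusted p = 0.904). Mff gave 0.11 ± 0.08 (adjusted p = 0.531) and Dnm1l 0.03 ± 0.09 (adjusted p = 0.882). The HF and Control pools did not overlap for 3 of the 7, Mfn2, Oma1 and Fis1, beside 38.7% of all genes tested. At both fasting times 6 of 7 had the same sign, beside 59.9% of all genes: 5 were lower in HF (beside 30.6%) and 1, Mff, was higher (beside 29.4%). The median difference was -0.07, beside 0.00 over all genes. The sign of Mff depends on the probe set, and those of Mfn1 and Dnm1l turned when 1 pool was left out.

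For Opa1 the probe sets disagreed in this comparison. Probe set 1449214_a_at stood at 961 and 1020.3 in the HF pools after 24 h and 4 h, against 680.2 and 783 in the Control pools, and the HF+SFC+ALA pools stood at 987 and 958. Both HF pools were above both Control pools, whereas the brightest probe set of Opa1 was lower in HF at each fasting time. Of all genes tested 38.7% did not overlap between HF and Control in either direction, a share that was not counted over probe sets. The difference of 1449214_a_at was 0.44 ± 0.12 with adjusted p = 0.152 in the limma fit over all probe sets, where 1 of the 16 had an unadjusted p under 0.05, beside 13.7% of all probe sets, and 0 passed, beside 0.591%. The third probe set, 1418768_at, gave 0.08 ± 0.16. Opa1 transcripts are known to be spliced in several forms, and which of them each probe set reads is not known from the files. For Dnm1l the dim probe set 1452638_s_at gave 0.57 ± 0.32 and the second probe set 0.13 ± 0.12, beside 0.03 for the brightest. The second probe set gave -0.14 ± 0.09 for Mfn1, 0.02 ± 0.11 for Fis1 and -0.03 ± 0.09 for Mff.

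**Figure D4:**
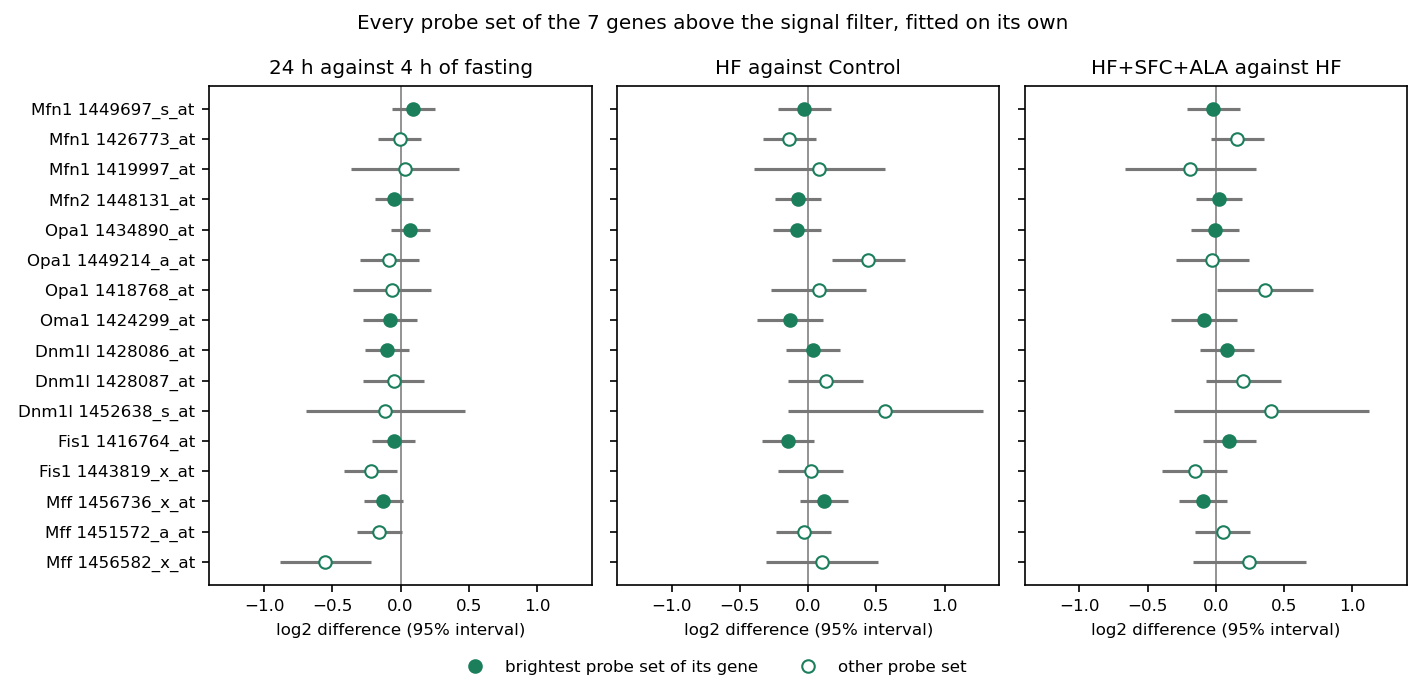
Log2 difference with its 95% interval (horizontal axes) for each of the 16 probe sets above the signal filter (rows), fitted on their own, in the 3 comparisons; filled points are the brightest probe set of a gene and open points the others. For HF against Control the open point of Opa1 1449214_a_at lies at 0.44 while the filled point of Opa1 lies at -0.08.

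Markers of other cells moved between HF and Control pools. Of 10 measured adipocyte markers 4 rose with high-fat feeding, beside 0.564% of all genes tested. So did 4 of 10 fibroblast, 3 of 6 tendon and 1 of 8 smooth muscle and pericyte markers. Of 13 macrophage markers 0 passed, but 13 had positive differences, with a median of 0.57. Differences were positive for 7 of 10 adipocyte, 10 of 10 fibroblast and 6 of 15 muscle fibre markers, beside 5759 of 11526 genes tested. The summed signal of the adipocyte list was 52554 and 45414 in the HF pools after 24 h and 4 h, against 45332 and 35009 in the Control pools. Of this sum Fabp4 made up 31773 and 26497 in the HF pools, against 26207 and 21626 in the Control pools. Adipoq stood at 4280 and 4637, against 577 and 901. No marker of the adipocyte list was under the floor in every pool. Of 15 muscle fibre markers 0 passed, and their summed signal was 692248 and 589929 in the HF pools, against 659490 and 645931 in the Control pools. Of 7 slow fibre markers 0 passed as well, but their summed signal varied more between pools. After 24 h it was 67338, 93438 and 70972 in the HF+SFC+ALA, HF and Control pools, against 92963, 62397 and 83641 after 4 h. With fasting 2 of 10 adipocyte markers rose, Pnpla2 and Dgat2, enzymes that break down and build triglyceride, beside 1.49% of all genes, while Adipoq (-0.68), Lep (-0.99), Retn (-1.52) and Cidec (-0.80) did not pass. In that comparison 1 of 13 macrophage, 1 of 10 fibroblast and 2 of 8 smooth muscle and pericyte markers fell, beside 0.92% of all genes. With SFC and ALA 0 markers of any of the 11 lists passed, beside 0.0% of all genes tested. Still, 8 of 10 adipocyte markers had negative differences and 2 positive. Adipoq gave -1.84 and Cidec -1.68, each with adjusted p = 0.0562 in the limma fit, the lowest of all genes. Differences were also negative for 10 of 10 fibroblast, 8 of 8 smooth muscle and pericyte and 10 of 13 macrophage markers. The same held for 11 of 15 muscle fibre, 5 of 9 endothelial, 5 of 6 tendon and 4 of 4 Schwann cell markers. They were positive for 6 of 7 slow fibre and 2 of 2 neutrophil markers. Over all genes tested 5909 of 11526 differences were negative. The part of these cells in the values of the 7 genes was not tested, and in whole tissue fewer cells of a type and less RNA per cell cannot be told apart.

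The addition of iron citrate and ALA to the high-fat diet was compared last. Of the 7 genes 0 passed and 0 had an unadjusted p under 0.05 in the limma fit, where 0.0% of all genes tested passed and 5.08% had an unadjusted p under 0.05. Fis1 stood at 4951 and 5502 in the HF+SFC+ALA pools after 24 h and 4 h, against 4888 and 4854 in the HF pools, without overlap (beside 28.9% of all genes), and its difference of 0.10 ± 0.08 (adjusted p = 0.973) was 0.18 between the 4 h pools and 0.02 between the 24 h pools. The second probe set of Fis1 went the opposite way, at -0.16 ± 0.10. Dnm1l gave 0.08 ± 0.09 and Mfn2 0.02 ± 0.07, each higher in HF+SFC+ALA at both fasting times. Leaving out the HF+SFC+ALA pool at 4 h or at 24 h gave 0.00025 and 0.16 for Dnm1l, and over all pools left out Mfn2 ran from 0.0058 to 0.041. Mff gave -0.10 ± 0.08 and Oma1 -0.09 ± 0.10, each lower at both. Mfn1 (-0.02 ± 0.08) and Opa1 (-0.01 ± 0.08) changed sign between fasting times. At both fasting times 5 of 7 had the same sign, beside 50.7% of all genes, 2 of them lower (beside 26.7%) and 3 higher (beside 24.0%). The next brightest probe set turned the sign of Mff to 0.049 and that of Mfn1 to 0.16. Adjusted p of these 6 genes ran from 0.973 to 0.997. The dimmest probe set of Opa1 above the filter, 1418768_at, stood at 423 and 449 in the HF+SFC+ALA pools, against 343 and 336 in the HF pools, and gave 0.36 ± 0.16 (adjusted p = 0.946 in the limma fit over probe sets). It was the only 1 of 16 with an unadjusted p under 0.05, beside 5.18% of all probe sets.

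A p that misses the threshold does not show that a gene did not differ, so the intervals give the sizes that these pools allow. Over the 7 genes the 95% intervals reached from 0.828-fold to 1.19-fold for 24 h against 4 h, from 0.775-fold to 1.22-fold for HF against Control and from 0.801-fold to 1.22-fold for HF+SFC+ALA against HF. These bounds hold for the brightest probe set of each gene.

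Genes around the machinery were read from 8 lists of related factors, with 80 of 84 genes other than the 7 above the signal filter. In the fasting comparison 0 of the 80 rose and 1 fell, Ppargc1a, beside 1.49% and 0.92% of all genes tested. For HF against Control 0 rose and 0 fell, beside 0.564% and 0.321%, and for HF+SFC+ALA against HF 0 rose and 0 fell, beside 0.0% in each direction. Ppargc1a stood at 1239, 1798 and 978 after 24 h in the HF+SFC+ALA, HF and Control pools, against 2314, 2515 and 2991 after 4 h. All 24 h pools were below all 4 h pools, where 18.9% of all genes tested did not overlap in either direction. The log2 difference was -0.9995 ± 0.17 (adjusted p = 0.0212 in the limma fit). Without either HF+SFC+ALA pool it was -1.05 and no longer passed (adjusted p = 0.100 and adjusted p = 0.101). Of its partners in the list of PGC-1 and ERR regulators, Esrra, which encodes ERRalpha, gave -0.32 ± 0.08 (adjusted p = 0.0696), Pprc1, a further coactivator of the PGC-1 family, 0.45 ± 0.13 (adjusted p = 0.112, and 0.59 with adjusted p = 0.0134 and 0.0156 without either Control pool) and Ppargc1b, the sister coactivator, -0.10 ± 0.15 (adjusted p = 0.774). In that list 0 of 10 genes rose and 1 fell.

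The other lists held no gene that passed in the fasting comparison. Among 9 measured fission receptors and partners, Gdap1, an outer membrane protein of the mitochondrial network, gave -0.32 ± 0.10 (adjusted p = 0.149), and the median was -0.05. Of 8 genes of OPA1 processing, Yme1l1, the inner membrane protease that cuts OPA1 beside OMA1, gave 0.21 ± 0.09 (adjusted p = 0.273). Of 4 other outer membrane fusion factors Miga1 gave 0.26 ± 0.13 (adjusted p = 0.343). Senp5, a protease that removes SUMO from DRP1, gave -0.25 ± 0.12 (adjusted p = 0.334) among 13 regulators of fusion and fission proteins. In the cristae organising system, with 11 genes, Dnajc11 gave -0.21 ± 0.12 (adjusted p = 0.391), and of 7 genes of motility and tethering Trak2, an adaptor that links mitochondria to motors, gave -0.25 ± 0.09 (adjusted p = 0.177). Several of these values rest on 1 diet or probe set. Miga1 was 0.095 without either HF+SFC+ALA pool and 0.093 with its next brightest probe set, and Dnajc11 was -0.077 without either HF+SFC+ALA pool. Without either Control pool Yme1l1 was 0.10, Gdap1 -0.20 and Senp5 -0.15, and Senp5 was -0.0017 with its next brightest probe set. The 19 genes of mitochondrial content, such as those of citrate synthase and the outer membrane channels, had differences between -0.14 and 0.20 with a median of 0.03, and Tomm40 gave 0.20 ± 0.09 (adjusted p = 0.279).

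For HF against Control the largest of these genes by list also missed the threshold with all pools in the fit. Esrrg, an ERR receptor, gave 0.87 ± 0.23 (adjusted p = 0.145), Mul1, an outer membrane ubiquitin and SUMO ligase that acts on mitofusins and DRP1, -0.59 ± 0.20 (adjusted p = 0.224), and Spire1, an actin nucleator of fission sites, 0.50 ± 0.22 (adjusted p = 0.329), which was -0.0054 with its probe sets averaged. Mtx2, an outer membrane protein, gave 0.42 ± 0.11 (adjusted p = 0.124), Afg3l2, a subunit of an inner membrane protease, -0.39 ± 0.14 (adjusted p = 0.270), and Trak2 0.28 ± 0.11 (adjusted p = 0.271). Miga2, an outer membrane fusion factor, gave 0.19 ± 0.13 (adjusted p = 0.511; -0.18 with the next brightest probe set) and Tomm40 -0.26 ± 0.11 (adjusted p = 0.314). Without the Control pool at 4 h 592 of all genes passed, among them Esrrg (1.39), Mul1 (-0.996), Mtx2 (0.49), Afg3l2 (-0.57), Ppargc1a (0.77) and Ppargc1b (0.77). That fit has 1 residual and 2277.59 prior degrees of freedom, against 2 and 7.27 with all pools. Without the HF pool at 4 h 275 genes passed, with Esrrg (1.33), Mtx2 (0.58) and Ppargc1b (0.87). Without the Control pool at 24 h 279 genes passed, but Esrrg (0.35), Mul1 (-0.18), Mtx2 (0.35), Afg3l2 (-0.20), Ppargc1a (-0.15) and Ppargc1b (0.30) did not. The next brightest probe set gave 0.92 for Esrra, 0.38 for Esrrg, -0.0027 for Mul1 and -0.14 for Afg3l2. In this comparison Ppargc1a gave 0.31 ± 0.21, Ppargc1b 0.53 ± 0.18 and Esrra 0.04 ± 0.10, and for HF+SFC+ALA against HF they gave -0.33 ± 0.21, 0.03 ± 0.18 and 0.19 ± 0.10, with adjusted p of 0.223 to 0.997 over both comparisons. In the supplement comparison the differences of the 80 genes had a median of 0.02.

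The genes whose log2 signal followed each of the 7 most closely over the 6 pools were found among 11525 others by Pearson's r, given as a description over 6 points that share arrays. For Mfn1 they were Intu and Abi2 (r = 0.985 and 0.984), for Mfn2 Ensa and Cpsf3 (0.996 and 0.992) and for Opa1 Tysnd1 and Dpf3 (0.995 and 0.993). For Oma1 they were Chd6 and Atg101 (0.993 and 0.990), for Dnm1l Caskin2 and Srp19 (0.980 and 0.978), for Fis1 Snhg10 and Osgep (0.981 and 0.979) and for Mff Slc16a12 and Tada1 (0.992 and 0.985). None of the 7 was among the closest of another.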

How the data were processed

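Each of 6 arrays held signals of 45101 probe sets. The authors deposited linear intensity values from MAS5, per the submitters' processing notes, which state neither its version nor its settings. RNA was pooled by group, per the labels.

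Of 45037 probe sets that are not controls (64 are), 34945 could be given a single symbol from the platform annotation; 932 had several symbols and 9160 had none there. For 34741 the symbol was brought up to date by its ID. A floor at the 30th percentile of signal (26.4) came before log2, and a gene was tested if its mean log2 signal exceeded the median (5.88). In R 4.3.3, limma 3.58.1 (lmFit, eBayes with an intensity trend) fitted diet plus fasting time to 11526 genes, with 2 residual and 7.27 prior degrees of freedom and Benjamini-Hochberg adjustment over them all. The fit was also run on simulated data, with noise drawn from its own estimate of spread and no fasting response that differed between diets. That setting does not show how well the p-values hold for these pools. Tables and figures used Python 3.11.15 with numpy 2.4.6, pandas 2.3.3 and matplotlib 3.10.9.

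Members, lists and tests were chosen with earlier results of these data known, and the fit of single probe sets after seeing the data. All 7 genes are named, with the probe sets that differ from the brightest. Of each list, genes past the threshold and, for fasting and HF, the largest other difference with 1 sign in every pair are named, as are Ppargc1a, Ppargc1b, Esrra and the 2 genes most like each of the 7. Alternatives changed the normalization, filter, floor, probe set rule, variance prior, diet block and pools.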

Additional observations from a re-analysis of the deposited data

Results flagged for a closer look

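A dim probe set of Dnm1l, 1452638_s_at, moved in opposite ways with fasting in different diets. It stood at 233 after 24 h against 196 after 4 h in the HF+SFC+ALA pools, at 179 against 145 in the HF pools and at 80.0 against 149 in the Control pools, which are log2 differences of 0.25, 0.31 and -0.89. The difference between diets was not tested, because each diet has 1 pool at each fasting time. The brightest probe set of Dnm1l gave -0.21, -0.08 and -0.01 in the same diets.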

How the results depend on the processing

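The number of the 7 genes that passed was 0 in each comparison and stayed 0 under all 16 alternatives for fasting and all 15 for each diet comparison, while the number of all genes that passed ran from 0 to 455 for fasting, 0 to 592 for HF against Control and 0 to 109 for HF+SFC+ALA against HF. The lowest adjusted p of any of the 7 was 0.246, 0.146 and 0.781 in the same order. Of 319 recomputed differences of the 7 genes 140 kept the same estimate by construction (a filter or variance setting, a diet outside the comparison, or a rule that picks the same probe set), and of the other 179, 27 changed sign. With the next brightest probe set these were Mfn1 (-0.0074) and Opa1 (-0.083) for fasting, Opa1 (0.44), Fis1 (0.018) and Mff (-0.032) for HF, and Mfn1 (0.16), Fis1 (-0.16) and Mff (0.049) for the supplement. The brightest probe set without an x or s in its name, an alternative chosen after seeing the data, gave -0.0074 for Mfn1 with fasting, -0.032 for Mff with HF, and 0.16 for Mfn1 and 0.049 for Mff with the supplement. Averaging the probe sets gave -0.024 for Opa1 with fasting, 0.15 for Opa1 and -0.10 for Mff with HF, and 0.11 for Opa1, -0.028 for Fis1 and 0.19 for Mff with the supplement. Miga2 turned to -0.18 with the next brightest probe set and Spire1 to -0.0054 with averaging. The cause was not tested. Leaving out 1 pool at a time gave -0.079 to 0.0021 for Fis1 with fasting, -0.092 to 0.037 for Mfn1 and -0.032 to 0.10 for Dnm1l with HF, and -0.11 to 0.076 for Mfn1 and -0.045 to 0.026 for Opa1 with the supplement. Without a change of sign it gave 0.051 to 0.16 for Mfn1, -0.14 to -0.045 for Dnm1l and -0.13 to -0.041 for Oma1 with fasting, 0.062 to 0.16 for Mff, -0.11 to -0.045 for Opa1 and -0.21 to -0.050 for Oma1 with HF, and 0.00025 to 0.16 for Dnm1l, 0.022 to 0.18 for Fis1, -0.16 to -0.036 for Mff and -0.14 to -0.027 for Oma1 with the supplement. It gave -0.33 to 0.054 for Ppargc1b with fasting, -0.15 to 0.77 for Ppargc1a and -0.059 to 0.13 for Esrra with HF, and -0.71 to 0.058 for Ppargc1a and -0.31 to 0.37 for Ppargc1b with the supplement. The fall of Ppargc1a also missed the threshold with no filter on signal (adjusted p = 0.430), without the intensity trend (adjusted p = 0.283), with its probe sets averaged (adjusted p = 0.129) and without diet in the model (adjusted p = 0.0523). Mfn2 has no second probe set above the filter, so the next brightest gave no value. No paired analysis was possible because the labels give no replicate numbers to pair by, beyond diet and fasting time, by which the model already pairs the pools.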
